A study of Homo sapiens with 12 samples.

Results

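The genes described here encode the chaperones, folding enzymes and degradation machinery of the endoplasmic reticulum (ER), together with XBP1 and the stress sensors ATF6 and IRE1, which control many of them. They were chosen by symbol from a list of 36 names, which gave 35 genes of the 20323 in the table, because VIMP is an older name of SELENOS. All 35 passed the low-count filter. Proteins that enter the secretory pathway fold in the ER with the help of Hsp70-type and Hsp90-type chaperones, disulfide isomerases and a lectin cycle that reads their sugar chains. Chains that fail to fold are passed back to the cytosol and degraded, which is called ER-associated degradation (ERAD). When unfolded protein accumulates, the sensors IRE1 (encoded by ERN1), ATF6 and PERK start the unfolded protein response. IRE1 does so by splicing the mRNA of XBP1, a transcription factor whose known targets include many of the genes below.

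RNA was sequenced from A549, an established line of human lung adenocarcinoma, with LKB1 (a kinase encoded by STK11) either intact or deficient. The titles name the intact cells WT and the deficient cells con, and do not say which of them is the parental line. Cells were given AA at high dose or phosphate-buffered saline (PBS), the former named VitC (vitamin C, ascorbate) in the titles. This gave 4 groups of 3 libraries: intact under PBS, intact under AA, deficient under PBS and deficient under AA. The sources used here do not give the dose, the exposure time or how the intact and deficient cells were made. No label says that libraries of a group came from separate cultures, and the spread that the p-values rest on may therefore be technical. Library totals ran from 16055534 to 20306129 estimated counts. STK11 had 24.5 ± 0.928 CPM (counts scaled to library size and TMM factor, ± SD, n = 3) in intact and 5.79 ± 0.862 in deficient cells under PBS, and every deficient library lay below every intact one. Mitochondrial genes went from 5.25 ± 0.0864% to 3.65 ± 0.059% of counts under AA in intact and from 5.20 ± 0.147% to 2.59 ± 0.0479% in deficient cells, and their part in the results below was not tested. Of the epithelial markers, KRT8, KRT18 and KRT7 were abundant, EPCAM had 7.02 to 10.7 CPM and CDH1 1.17 to 1.61 CPM as group means. Of the alveolar type II markers NKX2-1, SFTPB and SFTPC were at or near 0, while ABCA3, a lipid transporter, had group means of 124 to 139 CPM. Of the leukocyte markers PTPRC and CD3E were at or near 0, while CD68, a lysosomal protein, had 90.002 and 85.8 CPM in intact and deficient cells under PBS and 108 and 106 under AA as group means. Of 4 endothelial markers only 1 passed the filter, and their summed level was 9.19 to 10.7 CPM in intact cells under PBS and 0.719 to 1.68 in deficient cells under AA.

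Under AA a share of these genes close to that of all genes was called in each genotype, and more of the calls were lower than higher. A gene was called where edgeR's quasi-likelihood test gave a Benjamini-Hochberg adjusted p under 0.05 over all 12718 genes tested. In deficient cells 7 of the 35 were higher under AA, 19 lower and 9 not called, and the median log2 change was -0.16. Over all genes tested 37.0% were higher, 37.4% lower and 74.4% called in either direction, with a median of 0.013. In intact cells 10 were higher, 16 lower and 9 not called, with a median of -0.049, against 34.5% higher, 35.2% lower and 69.8% called among all genes, whose median was 0.0069. The effect of AA differed between the genotypes for 24 of the 35: it was more positive in deficient cells for 6 and more negative for 18. Among all genes 21.6% were called more positive, 23.0% more negative and 44.6% in either direction, so the share of members that were more negative, 51.4%, lay above that of all genes. The members and their roles below were chosen with results of these data known, and no test was made of that share or of the counts by role. Summed over the 35 genes, the share of all counts was 1.12 ± 0.0128% in deficient cells under PBS and 1.09 ± 0.00979% under AA, and 1.15 ± 0.0121% and 1.14 ± 0.00853% in intact cells. In bulk RNA, fewer cells of a kind and less RNA per cell cannot be told apart.

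**Figure D1:**
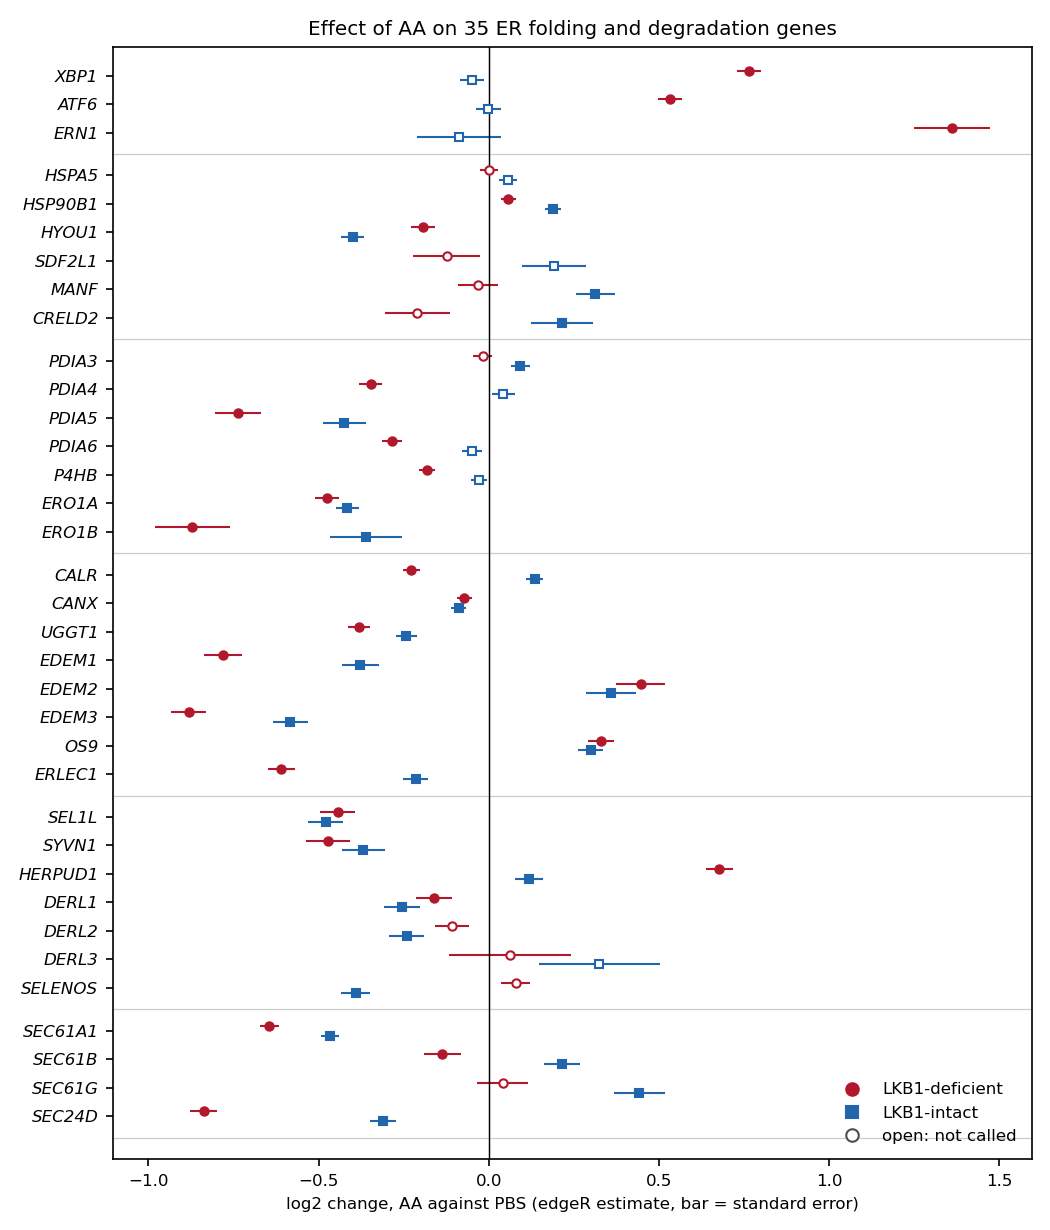
The log2 change under AA (horizontal axis, with its standard error) of each of the 35 genes, grouped by role from XBP1, ATF6 and ERN1 at the top to the translocon and coat genes at the bottom, in deficient (red circles) and intact (blue squares) cells; open marks were not called. XBP1, ATF6 and ERN1 lie right of 0 in deficient cells and near 0 in intact cells, while most disulfide isomerases and lectins lie left of 0 in deficient cells.

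Many of these genes carry a known ER stress element (ERSE) in their promoters, the binding site of ATF6 and XBP1 together with the CCAAT factor NF-Y. RefSeq promoter windows on GRCh38.p14, from 250 bases before to 50 bases after the start, were found for 31 of the 35 genes and searched on both strands. The ERSE (CCAAT, 9 bases, CCACG) was present in 8 of them: CALR, CANX, CRELD2, ERO1B, HSP90B1, HSPA5, PDIA6 and XBP1. The matches of CANX, CRELD2, HSP90B1 and PDIA6 lie inside the gene spans of the GENCODE annotation used below, which begin at other transcript starts. Of all 35116 windows 0.0769% held it. The ERSE-II (ATTGG, 1 base, CCACG) was present in HERPUD1, HYOU1 and SDF2L1, and in 0.0541% of all windows. TGACGTGG, the core of the element bound by XBP1, was found in HYOU1, where it overlaps 1 of its 2 ERSE-II matches, and in 0.729% of all windows. TGATGCAA, the core of the element bound by ATF4 and C/EBP proteins, was found in HERPUD1 on the opposite strand (TTGCATCA), and in 0.866% of all windows. The sequences of the genes that moved in unlike ways are shown 5′ to 3′ on the strand of the gene, with the matched bases, spacer included, in capitals. An element on the opposite strand reads as its reverse complement.
HSPA5 ERSE, chr9:125241381-125241419, minus strand: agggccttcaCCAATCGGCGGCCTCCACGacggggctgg
XBP1 ERSE, chr22:28800593-28800631, minus strand: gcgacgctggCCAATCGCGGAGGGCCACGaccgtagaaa
CALR ERSE, chr19:12938374-12938412, plus strand: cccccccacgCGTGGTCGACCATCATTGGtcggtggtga
ERO1B ERSE, chr1:236282173-236282208, minus strand: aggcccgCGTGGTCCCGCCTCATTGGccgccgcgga
HERPUD1 ERSE-II, chr16:56932015-56932045, plus strand: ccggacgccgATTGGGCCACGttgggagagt
HERPUD1 CARE core, chr16:56931956-56931983, plus strand: acgcggcgggTTGCATCAgcccgtgccc
HYOU1 UPRE core, chr11:119057376-119057403, minus strand: gctggccccgTGACGTGGtccaatccca
SDF2L1 ERSE-II, chr22:21642104-21642134, plus strand: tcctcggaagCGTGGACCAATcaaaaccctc
The 11 genes with an ERSE or ERSE-II match were called in both directions, as were all genes tested. Under AA in deficient cells 3 were higher (XBP1, HERPUD1 and HSP90B1), 5 lower and 3 not called, and in intact cells 4 were higher, 3 lower and 4 not called. Of the 20 genes whose windows held neither element, 4 were higher, 12 lower and 4 not called in deficient cells, and 5 were higher, 11 lower and 4 not called in intact cells. Over all genes 37.0% were higher and 37.4% lower in deficient cells, and 34.5% and 35.2% in intact cells, so nothing about the elements is read from these counts. The median changes of the genes with and without an element were -0.12 and -0.26 in deficient cells and 0.055 and -0.23 in intact cells, and no test was made between them. A match describes letters in a window and does not show that a factor was bound.

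AA raised XBP1 and the sensor genes ATF6 and ERN1 in deficient cells: all 3 rose there, by 1.45-fold for ATF6, 1.70-fold for XBP1 and 2.57-fold for ERN1. None of the 3 was called in intact cells, and the effect differed between the genotypes for each. Over all genes 37.0% were called higher in deficient cells and 21.6% more positive for the difference. EIF2AK3, the gene of the third sensor, PERK, is not among the 35 and fell in deficient cells. A ± beside a log2 change is its standard error. XBP1 (ENSG00000100219, chr22:28794555-28800597, minus strand; positions here and below from GENCODE release 29 on GRCh38, not matched to the authors' build) had 169.9, 171 and 161 CPM in the deficient libraries under PBS and 291, 271 and 289 under AA. Its values in intact libraries were 171, 168 and 167 under PBS and 163, 160.3 and 166 under AA. The 3 deficient AA libraries stood far above the other 9, and the log2 change was 0.77 ± 0.035 (edgeR adjusted p = 1.7e-14) in deficient and -0.049 ± 0.036 (edgeR adjusted p = 0.23) in intact cells, a difference of 0.81 ± 0.05 (edgeR adjusted p = 2.6e-11). Gene-level counts do not separate the spliced from the unspliced XBP1 mRNA. ATF6 (ENSG00000118217, chr1:161766294-161964070, plus strand), the sensor that is cut in the Golgi to release a transcription factor, showed 109, 106 and 110.2 CPM in deficient cells under PBS and 158, 153 and 158 under AA. The intact libraries held 109, 106 and 110.2 under PBS and 109, 109.8 and 105 under AA, which overlapped. The change was 0.53 ± 0.035 (edgeR adjusted p = 1e-11) in deficient and -0.0016 ± 0.036 (edgeR adjusted p = 0.97) in intact cells, and the difference 0.53 ± 0.051 (edgeR adjusted p = 2.2e-08). ERN1 (ENSG00000178607, chr17:64039142-64130819, minus strand), which encodes the kinase and ribonuclease IRE1, was scarce, at 11.5, 9.05 and 10.02 CPM in deficient cells under PBS, and reached 26.1, 25.3 and 27.2 under AA. Intact libraries had 10.6, 8.81 and 12.2 under PBS and 9.64, 11.5 and 8.74 under AA, again overlapping. Its change of 1.36 ± 0.11 (edgeR adjusted p = 3.2e-10) in deficient cells was the largest of the 35, against -0.087 ± 0.12 (edgeR adjusted p = 0.54) in intact cells, with a difference of 1.45 ± 0.17 (edgeR adjusted p = 3.6e-07). In a fit that removed the dependence of the change on transcript length (the length trend below), XBP1 changed by 0.58 in deficient cells and was called lower in intact cells (-0.18, edgeR adjusted p = 8.5e-05), while the calls of ATF6 and ERN1 stayed as they were.

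**Figure D2:**
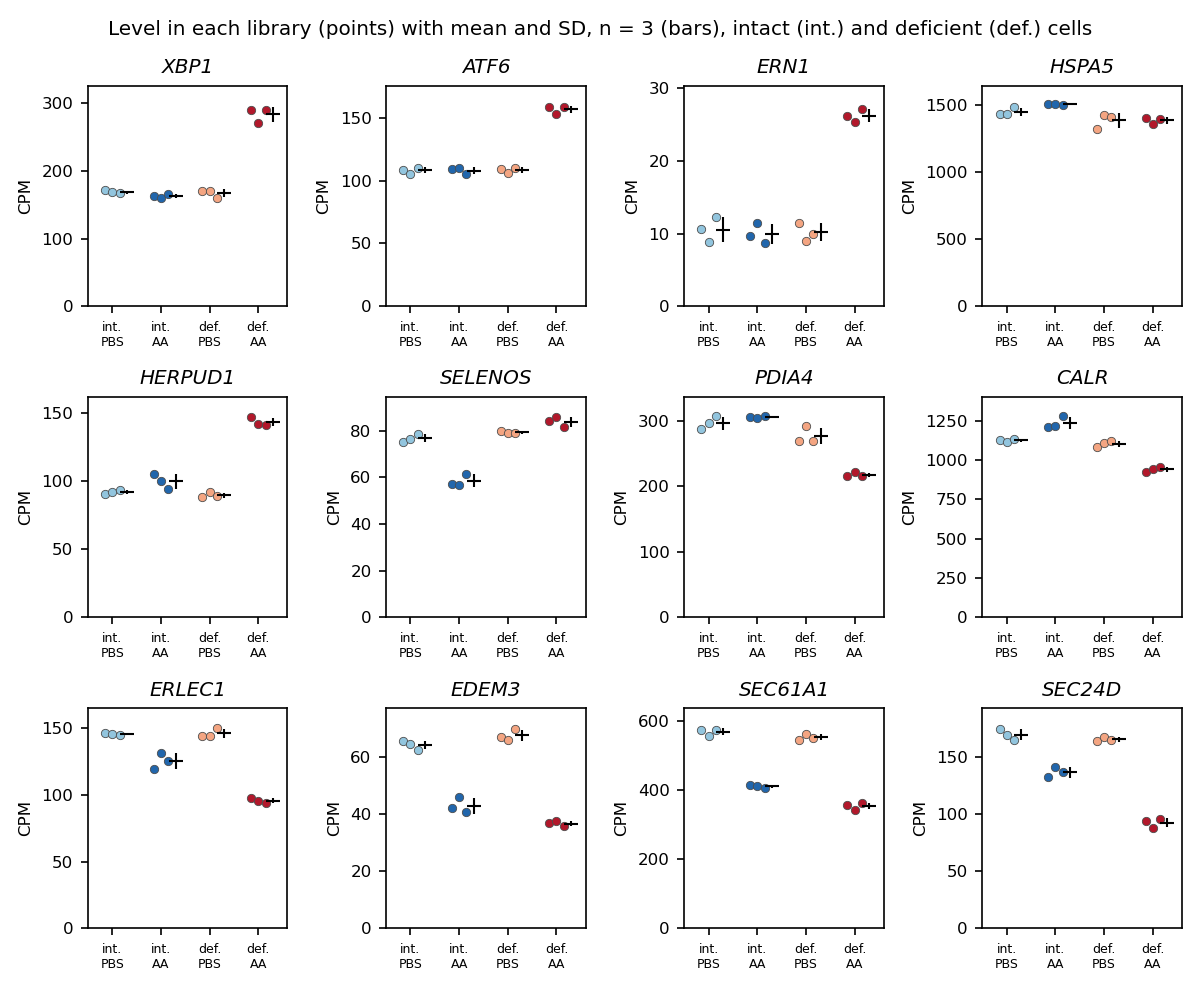
CPM (vertical axes, each from 0) of 12 of the genes in each of the 12 libraries (points), with the mean and SD of the 3 libraries of a group beside them, for intact (int.) and deficient (def.) cells under PBS and AA. XBP1, ATF6, ERN1 and HERPUD1 are highest in the 3 deficient AA libraries, HSPA5 lies between 1323 and 1509 CPM throughout, and PDIA4, CALR, ERLEC1 and SEC24D are lowest in the deficient AA libraries.

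Of the 6 Hsp70 and Hsp90 chaperones and co-factors, 1 was higher and 1 lower under AA in deficient cells, and 3 were higher and 1 lower in intact cells. Over all genes 37.0% were higher and 37.4% lower in deficient cells, and 34.5% and 35.2% in intact cells. HSPA5 (ENSG00000044574, chr9:125234853-125241330, minus strand) encodes BiP, the ER Hsp70 that also holds the sensors inactive and is the usual marker of the unfolded protein response. It had 1323, 1421 and 1409 CPM in deficient cells under PBS and 1400.3, 1357 and 1397 under AA. In intact cells the libraries gave 1430.4, 1429 and 1483 and 1505, 1509 and 1498. Deficient libraries overlapped between treatments, and the 3 intact AA libraries lay just above the intact PBS ones. The change was 0.00022 ± 0.026 (edgeR adjusted p = 0.99) in deficient and 0.055 ± 0.026 (edgeR adjusted p = 0.068) in intact cells, with a difference of -0.055 ± 0.037 (edgeR adjusted p = 0.24), and the 95% interval in deficient cells ran from -0.061 to 0.061. The intact change of HSPA5 was close to the threshold and was called in 8 of 24 other settings. DESeq2 called it at 0.060 (DESeq2 adjusted p = 0.049), and edgeR called it with upper quartile factors at 0.12, with library sizes alone at 0.059, with a filter of at least 1 CPM at 0.061 and with the compared libraries alone at 0.061, where adjusted p ran from 0.00065 to 0.043. It was also called without the third intact PBS library, at 0.071 (edgeR adjusted p = 0.04), or without the first deficient PBS library, at 0.053 (edgeR adjusted p = 0.036). Without that last library the difference between the genotypes was called too, at -0.087 (edgeR adjusted p = 0.038). With the length trend taken out HSPA5 was called higher in both genotypes, at 0.084 (edgeR adjusted p = 0.0078) in deficient and 0.11 (edgeR adjusted p = 0.00093) in intact cells, and library sizes alone gave 0.058 (edgeR adjusted p = 0.042) in deficient cells.

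HSP90B1 (ENSG00000166598, chr12:103930107-103953645, plus strand), the ER Hsp90 known as GRP94, had 1254, 1277 and 1293 CPM in deficient cells under PBS and 1339.6, 1322 and 1319 under AA. Intact cells gave 1312, 1318 and 1352 and 1499, 1540.2 and 1499. It rose in both genotypes and more in intact cells: 0.058 ± 0.023 (edgeR adjusted p = 0.027) in deficient, 0.19 ± 0.023 (edgeR adjusted p = 2.1e-07) in intact and -0.13 ± 0.032 (edgeR adjusted p = 0.0021) for the difference. The rise in deficient cells was not called without the first deficient PBS library, at 0.044 (edgeR adjusted p = 0.11), or without the first deficient AA library, at 0.049 (edgeR adjusted p = 0.094). HYOU1 (ENSG00000149428, chr11:119044189-119057202, minus strand), a large Hsp70-like chaperone that exchanges the nucleotide of BiP, stood at 232, 243 and 237 CPM in deficient cells under PBS and 210.5, 201 and 211 under AA. The intact values were 236, 249 and 255 and 190.5, 187 and 184. Here the fall was deeper in intact cells, -0.40 ± 0.034 (edgeR adjusted p = 1.2e-09), than in deficient cells, -0.19 ± 0.034 (edgeR adjusted p = 3.1e-05), and the difference was 0.21 ± 0.049 (edgeR adjusted p = 0.0014). With the length trend taken out its change in deficient cells turned to 0.041 (edgeR adjusted p = 0.28).

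MANF and CRELD2 encode small secreted or luminal proteins that are induced by ER stress. MANF (ENSG00000145050, chr3:51385047-51389397, plus strand) had 49.6, 54.96 and 58.3 CPM in deficient cells under PBS and 50.4, 55.6 and 53.5 under AA. The intact libraries went from 52.5, 56.1 and 58.6 to 69.1, 67.3 and 71.6. Only the intact libraries separated: the change was 0.31 ± 0.057 (edgeR adjusted p = 5.2e-05) there and -0.032 ± 0.059 (edgeR adjusted p = 0.63) in deficient cells, a difference of -0.35 ± 0.082 (edgeR adjusted p = 0.0016). The change of MANF went to -0.016 (edgeR adjusted p = 0.82) in intact and to -0.44 (edgeR adjusted p = 6.3e-07) in deficient cells with the length trend taken out. CRELD2 (ENSG00000184164, chr22:49918167-49927540, plus strand) was scarcer, at 19.2, 17.5 and 17.7 CPM in deficient cells under PBS and 13.2, 18.3 and 15.7 under AA. Its intact libraries had 18.1, 19.03 and 17.6 and 21.96, 20.5 and 21.1. The deficient AA libraries were spread from 13.2 to 18.3 CPM, with neither end standing apart. The deficient change was -0.21 ± 0.095 (edgeR adjusted p = 0.052), and -0.33 (edgeR adjusted p = 0.0035) without the second AA library, the highest. Over 24 other settings it ran from -0.50 to -0.094 and was called in 3. In intact cells the change was 0.21 ± 0.091 (edgeR adjusted p = 0.041), and it was no longer called by DESeq2 (DESeq2 adjusted p = 0.059), with the length trend taken out (0.013), or on leaving out any of 4 libraries. It was 0.21 (edgeR adjusted p = 0.091) without the first and 0.19 (edgeR adjusted p = 0.13) without the third intact PBS library, and 0.19 (edgeR adjusted p = 0.12) without the first and 0.22 (edgeR adjusted p = 0.072) without the third intact AA library. The difference between the genotypes was -0.42 ± 0.13 (edgeR adjusted p = 0.012), and with the length trend taken out the deficient change of CRELD2 was -0.50 (edgeR adjusted p = 3.6e-05). SDF2L1, a partner of BiP, had 10.5 to 16.3 CPM over the 12 libraries and was not called for any AA effect or for the difference, -0.31 ± 0.14 (edgeR adjusted p = 0.065). The difference was called without the first intact PBS library, at -0.36 (edgeR adjusted p = 0.047), or without the first intact AA library, at -0.38 (edgeR adjusted p = 0.034), and the change in intact cells without the latter, at 0.25 (edgeR adjusted p = 0.03). SDF2L1 was called lower in deficient cells with the length trend taken out, at -0.55 (edgeR adjusted p = 2.3e-05), and the intact change was -0.16 (edgeR adjusted p = 0.12).

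The disulfide isomerases and oxidases, which make and reshuffle the disulfide bonds of folding proteins, were lowered by AA in deficient cells. There 6 of the 7 were lower and none higher, with a median of -0.35, and all but ERO1A were called more negative than in intact cells, where 1 was higher and 3 lower. Over all genes 37.4% were lower in deficient and 35.2% in intact cells, and 23.0% were called more negative for the difference. PDIA4 (ENSG00000155660, chr7:149003062-149028641, minus strand), also known as ERp72, had 269.8, 292 and 269.9 CPM in deficient cells under PBS and 216, 222 and 216 under AA. The intact libraries stayed together, at 287, 296 and 307 and 306, 304 and 307. Its change was -0.35 ± 0.034 (edgeR adjusted p = 7.2e-09) in deficient and 0.042 ± 0.034 (edgeR adjusted p = 0.27) in intact cells, and the difference -0.39 ± 0.048 (edgeR adjusted p = 9.9e-07). PDIA6 (ENSG00000143870, chr2:10783391-10837977, minus strand), a partner of BiP, had 334, 337 and 336 CPM in deficient cells under PBS and 281, 272 and 275 under AA. Its intact libraries, at 341, 336 and 345 and 319, 329 and 339, overlapped. A change of -0.28 ± 0.029 (edgeR adjusted p = 1.5e-08) in deficient cells stood against -0.049 ± 0.029 (edgeR adjusted p = 0.14) in intact cells, a difference of -0.23 ± 0.041 (edgeR adjusted p = 8.2e-05), and the intact change was called without the third intact AA library, at -0.071 (edgeR adjusted p = 0.047). The intact change of PDIA6 was also called lower with the length trend taken out, at -0.083 (edgeR adjusted p = 0.014). P4HB (ENSG00000185624, chr17:81843159-81860694, minus strand) is the founding protein disulfide isomerase and also the beta subunit of the collagen prolyl hydroxylases, enzymes that use ascorbate. It had 1102, 1118 and 1073 CPM in deficient cells under PBS and 963, 958 and 982 under AA. Intact cells gave 1126, 1115 and 1148 and 1104, 1105 and 1117, which overlapped. The change of P4HB was -0.18 ± 0.024 (edgeR adjusted p = 4.6e-07) in deficient and -0.027 ± 0.024 (edgeR adjusted p = 0.31) in intact cells, with a difference of -0.15 ± 0.033 (edgeR adjusted p = 0.00067).

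PDIA5 and the oxidases of the ERO1 family, which pass electrons from the isomerases to oxygen, were lower under AA in both genotypes. PDIA5 (ENSG00000065485, chr3:123067062-123225227, plus strand) had 38.1, 37.1 and 38.3 CPM in deficient cells under PBS and 22.04, 23.6 and 22.5 under AA. Intact cells went from 38.8, 42.5 and 40.1 to 29.8, 27.7 and 33.001. The changes of -0.74 ± 0.067 (edgeR adjusted p = 1.9e-09) in deficient and -0.42 ± 0.064 (edgeR adjusted p = 5.4e-06) in intact cells gave a difference of -0.31 ± 0.093 (edgeR adjusted p = 0.009). ERO1B (ENSG00000086619, chr1:236215555-236281985, minus strand) had 15.7, 15.7 and 17.5 CPM in deficient cells under PBS and 8.1998, 10.1 and 8.55 under AA. The corresponding intact values were 16.4, 16.5 and 17.2 and 12.3, 15.4 and 11.4. All AA libraries of a genotype lay below its PBS libraries, and the changes were -0.87 ± 0.11 (edgeR adjusted p = 3.2e-07) and -0.36 ± 0.1 (edgeR adjusted p = 0.0043), with a difference of -0.51 ± 0.15 (edgeR adjusted p = 0.0092). ERO1A (ENSG00000197930, chr14:52639916-52695900, minus strand), the more abundant oxidase, had 129.7, 132 and 134 CPM in deficient cells under PBS and 95.8, 96.5 and 92.1 under AA. In intact libraries it stood at 139, 138 and 139.6 and 106, 105 and 102. Its falls, -0.48 ± 0.035 (edgeR adjusted p = 6.3e-11) in deficient and -0.42 ± 0.035 (edgeR adjusted p = 8e-10) in intact cells, left a difference of -0.061 ± 0.05 (edgeR adjusted p = 0.34), which was not called. PDIA3 (ENSG00000167004, chr15:43746392-43773279, plus strand), the isomerase that works with the lectins, had 551, 585 and 589.8 CPM in deficient cells under PBS and 562, 574 and 569 under AA. Intact cells had 584, 592 and 607 and 636, 636 and 629. It was not called in deficient cells, at -0.017 ± 0.028 (edgeR adjusted p = 0.59), and rose slightly in intact cells, at 0.093 ± 0.028 (edgeR adjusted p = 0.0059), where the length trend taken out left -0.010 (edgeR adjusted p = 0.76) and made the deficient change of PDIA3 a called -0.17. The difference of -0.11 ± 0.04 (edgeR adjusted p = 0.029) was the least firm of the role. It was not called without the first intact PBS (-0.10), the second intact PBS (-0.11), the first intact AA (-0.11), the second deficient PBS (-0.094), the third deficient PBS (-0.092) or the first deficient AA library (-0.10), each left out in turn, with edgeR adjusted p between 0.057 and 0.075.

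The lectin cycle split by gene. CALR and CANX encode calreticulin and calnexin, which hold glycoproteins while they fold, and UGGT1 marks misfolded ones for another round. EDEM1, EDEM2 and EDEM3 trim mannose from chains that fail, and OS9 and ERLEC1 read the trimmed chains for degradation. In deficient cells 2 of the 8 were higher (EDEM2 and OS9) and 6 lower, in intact cells 3 were higher (these 2 and CALR) and 5 lower, and 5 were called more negative in deficient cells and none more positive. The shares of all genes that were lower were 37.4% in deficient and 35.2% in intact cells, and 23.0% were more negative for the difference. CALR (ENSG00000179218, chr19:12938578-12944489, plus strand) moved in opposite directions. It had 1081, 1107 and 1119 CPM in deficient cells under PBS and 925, 942 and 957 under AA. In intact cells it went from 1129, 1118 and 1133 to 1213, 1219 and 1280.1. The groups did not overlap in either genotype, with a change of -0.23 ± 0.025 (edgeR adjusted p = 4.4e-08) in deficient and 0.14 ± 0.025 (edgeR adjusted p = 6.7e-05) in intact cells, and a difference of -0.36 ± 0.036 (edgeR adjusted p = 3.8e-08). With the length trend taken out the intact change of CALR was 0.028 (edgeR adjusted p = 0.33), while the difference was -0.41. CANX (ENSG00000127022, chr5:179678628-179730925, plus strand), per length the most abundant of the 35, changed least among the lectins: -0.071 ± 0.022 (edgeR adjusted p = 0.0061) in deficient and -0.088 ± 0.022 (edgeR adjusted p = 0.0013) in intact cells, with a difference of 0.016 ± 0.031 (edgeR adjusted p = 0.7). Both small changes of CANX turned positive with the length trend taken out, at 0.067 and 0.0076.

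ERLEC1 (ENSG00000068912, chr2:53787044-53818819, plus strand) had 144, 144 and 150.1 CPM in deficient cells under PBS and 97.97, 95.1 and 94.05 under AA. Its intact libraries gave 146, 145 and 145 and 119, 132 and 125. It fell in both genotypes and further in deficient cells, with -0.61 ± 0.039 (edgeR adjusted p = 4.7e-12) and -0.21 ± 0.038 (edgeR adjusted p = 3.4e-05), a difference of -0.39 ± 0.054 (edgeR adjusted p = 3.9e-06). EDEM1 (ENSG00000134109, chr3:5187646-5219957, plus strand) measured 60.3, 61.8 and 59.4 CPM in deficient cells under PBS and 35.01, 33.7 and 36.9 under AA. The intact libraries had 61.3, 66.6 and 60.5 and 49.9, 50.1 and 45.3. Changes of -0.78 ± 0.056 (edgeR adjusted p = 3.6e-11) and -0.38 ± 0.054 (edgeR adjusted p = 2.3e-06) gave a difference of -0.40 ± 0.078 (edgeR adjusted p = 0.00021). EDEM3 (ENSG00000116406, chr1:184690231-184754913, minus strand) had 67.04, 65.8 and 69.7 CPM in deficient cells under PBS and 36.7, 37.4 and 35.9 under AA. The intact values went from 65.4, 64.4 and 62.5 to 42.1, 45.8 and 40.6. With the length trend left in, this was the steepest fall of the 35 in both genotypes, -0.88 ± 0.052 (edgeR adjusted p = 1.2e-12) and -0.58 ± 0.051 (edgeR adjusted p = 1.5e-09), with a difference of -0.30 ± 0.073 (edgeR adjusted p = 0.002). Without that trend the fall of EDEM3 was the steepest in neither genotype. EDEM1 and EDEM3 have long transcripts, and without the length trend the falls were -0.41 and -0.48 in deficient cells, and -0.10 (edgeR adjusted p = 0.085) and -0.28 in intact cells. UGGT1, longer still, had 293, 300.3 and 296 CPM in deficient cells under PBS and 233, 222 and 228 under AA. In intact cells the libraries held 319.7, 315 and 315 and 270.3, 276 and 256. The AA libraries lay below the PBS libraries in each genotype, with changes of -0.38 ± 0.032 (edgeR adjusted p = 4.9e-10) and -0.24 ± 0.032 (edgeR adjusted p = 6.9e-07) and a difference of -0.14 ± 0.045 (edgeR adjusted p = 0.016), but the length trend taken out turned them to 0.061 and 0.092 and left a difference of -0.032 (edgeR adjusted p = 0.54). EDEM2 and OS9 went the other way. EDEM2 rose by 0.45 ± 0.072 (edgeR adjusted p = 9.3e-06) in deficient and 0.36 ± 0.073 (edgeR adjusted p = 0.00018) in intact cells, and OS9 by 0.33 ± 0.037 (edgeR adjusted p = 5.5e-08) and 0.30 ± 0.037 (edgeR adjusted p = 3.2e-07). For neither was a difference between the genotypes called, at 0.086 ± 0.1 (edgeR adjusted p = 0.53) and 0.030 ± 0.053 (edgeR adjusted p = 0.68).

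In the degradation complex of the ER membrane, HERPUD1 and SELENOS were the genes called more positive in deficient than in intact cells. In intact cells SELENOS fell, as did SYVN1 and SEL1L. SYVN1 encodes the ubiquitin ligase of the complex (HRD1), SEL1L its scaffold, and the derlins channel subunits that pass chains back to the cytosol. Of the 7 genes 1 was higher and 3 lower under AA in deficient cells, 1 was higher and 5 lower in intact cells, and 2 were called more positive in deficient cells and none more negative. Among all genes 37.4% were lower in deficient and 35.2% in intact cells, and 21.6% were called more positive for the difference. HERPUD1 (ENSG00000051108, chr16:56932048-56944863, plus strand), a small membrane protein that organises the ligase complex and whose window holds both the ERSE-II and the ATF4-type core, had 88.2, 91.95 and 89.1 CPM in deficient cells under PBS and 147, 142 and 142 under AA. In intact cells it measured 90.98, 92.01 and 93.6 and 105, 101 and 94.1. The change was 0.68 ± 0.041 (edgeR adjusted p = 1.9e-12) in deficient and 0.12 ± 0.042 (edgeR adjusted p = 0.016) in intact cells, and the difference 0.56 ± 0.058 (edgeR adjusted p = 8.7e-08). The small intact rise was not called without the first intact PBS library, at 0.11 (edgeR adjusted p = 0.058), or the first intact AA library, at 0.078 (edgeR adjusted p = 0.13), and was -0.0012 with the length trend taken out. SELENOS (ENSG00000131871, chr15:101270817-101277500, minus strand), a selenoprotein that links the derlins to the VCP ATPase, had 79.97, 78.8 and 79.2 CPM in deficient cells under PBS and 84.3, 85.6 and 81.5 under AA. The intact libraries went from 75.1, 76.6 and 78.7 to 57.3, 56.8 and 61.6. It fell in intact cells, -0.39 ± 0.044 (edgeR adjusted p = 6.9e-08), and was not called in deficient cells, 0.079 ± 0.042 (edgeR adjusted p = 0.097), a difference of 0.47 ± 0.061 (edgeR adjusted p = 1.8e-06). The deficient change of SELENOS depended on the setting: upper quartile factors, library sizes alone and limma on FPKM called it higher, at 0.12 to 0.17, and with the length trend taken out it was called lower, at -0.27 (edgeR adjusted p = 1.3e-06). The difference was 0.38 in the last of these.

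SEL1L (ENSG00000071537, chr14:81471549-81533861, minus strand) had 75.4, 78.8 and 83.2 CPM in deficient cells under PBS and 60.2, 58.7 and 55.6 under AA. The intact libraries had 78.9, 78.4 and 83.7 and 58.9, 60.2 and 53.95. The scaffold fell in both genotypes, -0.44 ± 0.052 (edgeR adjusted p = 8.4e-08) and -0.48 ± 0.051 (edgeR adjusted p = 3.9e-08), and the difference of 0.035 ± 0.073 (edgeR adjusted p = 0.73) was not called. With the length trend taken out the deficient change became 0.0083. SYVN1 fell too, -0.47 ± 0.063 (edgeR adjusted p = 7.5e-07) in deficient and -0.37 ± 0.062 (edgeR adjusted p = 2.1e-05) in intact cells, and its difference of -0.10 ± 0.089 (edgeR adjusted p = 0.36) was not called. DERL1 was lower in both genotypes, at -0.16 ± 0.052 (edgeR adjusted p = 0.0087) and -0.26 ± 0.053 (edgeR adjusted p = 0.00021), and the deficient change of DERL1 was not called in 6 of 24 other settings. It was -0.13 (edgeR adjusted p = 0.051) without the second deficient AA library, -0.10 with library sizes alone, -0.064 with the length trend taken out and -0.029 with limma on log2(FPKM + 1), which did not call the intact change either (-0.088). DERL2 was lower in intact cells, -0.24 ± 0.051 (edgeR adjusted p = 0.00025), and in deficient cells it was -0.11 ± 0.051 (edgeR adjusted p = 0.062), or -0.15 (edgeR adjusted p = 0.015) without the third deficient PBS library and -0.45 (edgeR adjusted p = 2.4e-08) with the length trend taken out. DERL3, the third derlin, had only 2.62 to 4.12 CPM and was not called by edgeR in any comparison, while limma on log2(FPKM + 1) called it higher in both genotypes, at 0.34 in deficient and 0.46 in intact cells.

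The 4 members that serve entry into and exit from the ER were called more negative in deficient cells. SEC61A1, SEC61B and SEC61G encode the channel through which new chains enter, and SEC24D a cargo adaptor of the COPII coat that carries folded proteins out. In deficient cells 3 of the 4 were lower and none higher, and in intact cells 2 were higher and 2 lower. Among all genes 37.4% were lower in deficient cells, 34.5% were higher and 35.2% lower in intact cells, and 23.0% were more negative for the difference. SEC24D (ENSG00000150961, chr4:118722823-118838683, minus strand) had 163, 168 and 165 CPM in deficient cells under PBS and 94.1, 87.8 and 95.3 under AA. Intact cells went from 174, 169 and 165 to 132, 141 and 136. The changes were -0.84 ± 0.039 (edgeR adjusted p = 2.5e-14) and -0.31 ± 0.038 (edgeR adjusted p = 2.4e-07), and the difference -0.53 ± 0.054 (edgeR adjusted p = 7.5e-08) was the most negative of the 35. SEC61A1 (ENSG00000058262, chr3:128051641-128071683, plus strand), the channel itself, had 547, 563 and 550.5 CPM in deficient cells under PBS and 356, 344 and 362 under AA. The intact libraries had 575, 558 and 576 and 417, 413 and 407. It fell in both genotypes, -0.65 ± 0.028 (edgeR adjusted p = 6.5e-15) and -0.47 ± 0.028 (edgeR adjusted p = 2.6e-12), with a difference of -0.18 ± 0.039 (edgeR adjusted p = 0.00075). The small subunits behaved otherwise in intact cells. SEC61B (ENSG00000106803, chr9:99222064-99230615, plus strand) had 45.7, 45.7 and 49.3 CPM in deficient cells under PBS and 41.8, 42.4 and 43.9 under AA. In intact cells it rose from 45.7, 47.6 and 49.3 to 54.8, 52.6 and 58.04. Its changes were -0.14 ± 0.054 (edgeR adjusted p = 0.028) and 0.21 ± 0.053 (edgeR adjusted p = 0.0011), and the difference -0.35 ± 0.076 (edgeR adjusted p = 0.00067). The deficient fall was not called without the third deficient PBS library, at -0.10 (edgeR adjusted p = 0.13), nor without the first or the second deficient AA library, at -0.12 (edgeR adjusted p = 0.085) and -0.13 (edgeR adjusted p = 0.061). DESeq2 did not call the fall of SEC61B either, at -0.13 (DESeq2 adjusted p = 0.06), nor did edgeR with upper quartile factors or library sizes alone, or limma on FPKM, at -0.096 to -0.077. SEC61G (ENSG00000132432, chr7:54752250-54759974, minus strand) had 83.3, 71.2 and 90.000 CPM in deficient cells under PBS and 84.4, 89.4 and 77.8 under AA, with overlap. Intact cells had 74.4, 76.01 and 68.3 and 102, 87.8 and 108. The change was 0.041 ± 0.075 (edgeR adjusted p = 0.63) in deficient and 0.44 ± 0.075 (edgeR adjusted p = 2.1e-05) in intact cells, with a difference of -0.40 ± 0.11 (edgeR adjusted p = 0.0038). Both small subunits have the shortest transcripts of the 35. With the length trend taken out the intact changes turned to -0.23 for SEC61B and -0.045 for SEC61G and the deficient change of SEC61G to -0.46, while the differences stayed at -0.39 and -0.41.

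Set side by side, 14 genes (40% of the 35) were lower under AA in both genotypes and 4 (11.4%) higher in both (HSP90B1, EDEM2, OS9 and HERPUD1). Of all genes tested 27.0% were lower in both and 24.6% higher in both. CALR and SEC61B were lower in deficient and higher in intact cells. XBP1, ATF6 and ERN1 were higher in deficient cells and not called in intact cells, and PDIA4, PDIA6 and P4HB were lower in deficient cells and not called in intact cells. MANF, CRELD2, PDIA3 and SEC61G were higher, and DERL2 and SELENOS lower, in intact cells with no call in deficient cells. HSPA5, SDF2L1 and DERL3 were called in neither. These counts use the call in each genotype, and the tests of the difference are those given by gene above. The counts also keep the length trend. With it taken out CANX and UGGT1 turned positive in both genotypes, and HYOU1 and SEL1L in deficient cells. DERL1 in deficient and EDEM1 in intact cells were no longer called lower. HERPUD1 (-0.0012) and CALR (0.028) were no longer called in intact cells, and SEC61B was called lower there (-0.23). Other changes are given by gene above.

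**Figure D3:**
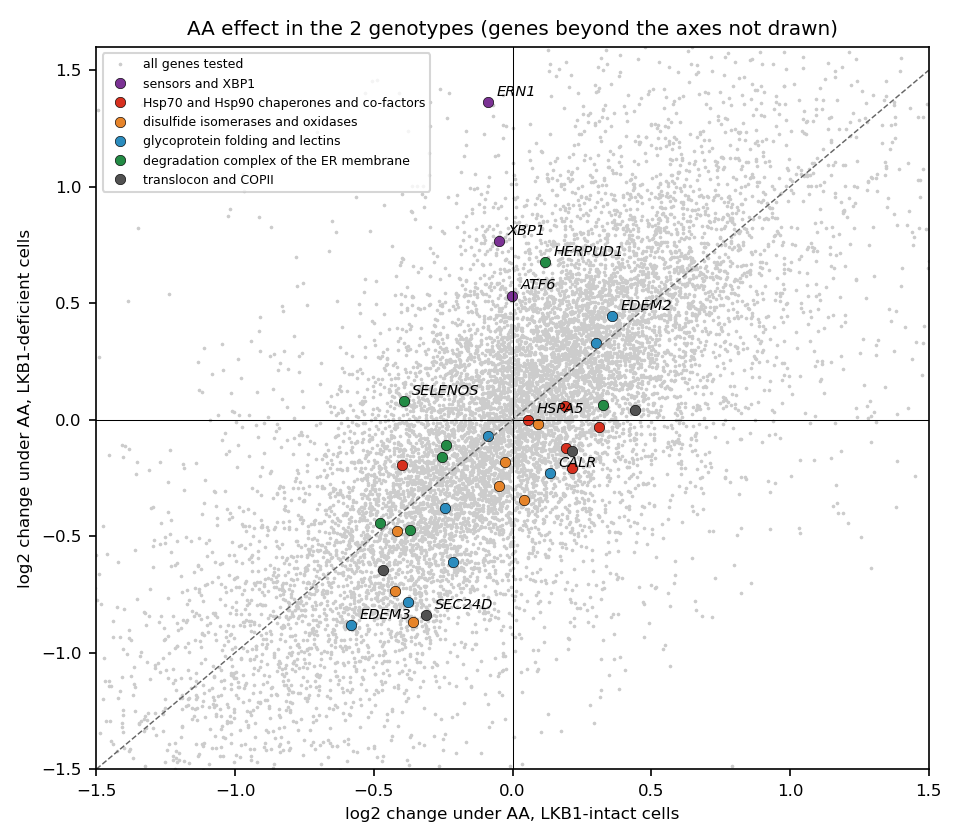
The log2 change under AA in intact cells (horizontal) against that in deficient cells (vertical) for all genes tested (grey; those beyond the axes are not drawn) and for the 35 genes coloured by role; the dashed line marks equal change. XBP1, ATF6, ERN1, HERPUD1 and SELENOS lie above the line, and SEC24D and CALR below it.

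Levels per length placed CANX and CALR first, followed by the main chaperones and P4HB. In intact cells under PBS, CANX had 739.9 ± 6.5 FPKM (a level corrected for length and depth, ± SD, n = 3), CALR 600.1 ± 7.1, HSPA5 486 ± 4, HSP90B1 474 ± 7 and P4HB 461 ± 7.9. The libraries of HSP90B1 overlapped those of P4HB, and the other neighbours in this order did not overlap. In deficient cells under AA the order was CANX with 693 ± 17, CALR with 515 ± 11, HSP90B1 with 496 ± 2.7, HSPA5 with 478 ± 0.97 and P4HB with 412 ± 5.7 FPKM, with CALR, HSP90B1 and HSPA5 in ranges that did not overlap. XBP1 went from 93.3 ± 4.1 to 172 ± 6.5 FPKM in deficient cells. FPKM values of all genes summed to 500366 to 514614 in deficient libraries under PBS and to 544596 to 555234 under AA. They therefore do not share a common total between treatments, and the change of XBP1 by edgeR was 1.70-fold. ERN1, at 1.33 ± 0.16 FPKM in deficient cells under PBS, was the lowest of the 35 there, and DERL3, at 2.201 ± 0.12, the next.

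Under PBS no member was called between the genotypes. The test called 0 of the 35 by edgeR, with log2 differences (deficient minus intact) from -0.17 to 0.16, and 0 by DESeq2, while 6 had an unadjusted p under 0.05 by edgeR and 4 by DESeq2. The share of all genes under that unadjusted threshold is not given here, so nothing is read from the 6 and 4. Over all genes tested 0.0550% were called higher in deficient cells, 0.220% lower and 0.275% in either direction. XBP1 differed by -0.015 ± 0.036 (edgeR adjusted p = 0.94), HSPA5 by -0.064 ± 0.026 (edgeR adjusted p = 0.48) and ERN1 by -0.049 ± 0.12 (edgeR adjusted p = 0.94). Under AA 8 of the 35 were higher and 22 lower in deficient than in intact cells, with a median of -0.19, while 28.7% of all genes were higher, 30.3% lower and 59.0% called in either direction. All 7 disulfide isomerases and oxidases and all 4 translocon and coat genes were lower, and XBP1, ATF6 and ERN1 higher. The largest differences under AA were those of ERN1 (1.40 ± 0.11 (edgeR adjusted p = 4.1e-10)) and XBP1 (0.80 ± 0.035 (edgeR adjusted p = 2.1e-14)) among the genes higher in deficient cells, and SEC24D (-0.56 ± 0.039 (edgeR adjusted p = 6.3e-11)), ERO1B (-0.54 ± 0.11 (edgeR adjusted p = 0.00025)), PDIA4 (-0.49 ± 0.034 (edgeR adjusted p = 6.3e-11)) and SDF2L1 (-0.48 ± 0.094 (edgeR adjusted p = 0.00015)) among those lower. HSPA5 was lower, with a log2 difference of -0.12 ± 0.026 (edgeR adjusted p = 0.00054). Some calls under AA rested on single libraries or on the setting, and DESeq2 called neither EDEM2 (DESeq2 adjusted p = 0.079) nor DERL1 (DESeq2 adjusted p = 0.077). EDEM2 (0.17 ± 0.069 (edgeR adjusted p = 0.037)) was between 0.15 and 0.17 and lost its call on leaving out the first or second intact AA or the second or the third deficient AA library. SYVN1 (-0.17 ± 0.064 (edgeR adjusted p = 0.029)) lost its call without those same libraries, at -0.13, -0.16, -0.16 and -0.13. DERL1 (0.13 ± 0.053 (edgeR adjusted p = 0.044)) was not called without the third intact PBS library (0.13), any intact AA library (0.14, 0.13 and 0.12) or the first (0.13) or the third (0.089) deficient AA library. SEC61G (-0.24 ± 0.073 (edgeR adjusted p = 0.0072)) was -0.18 (edgeR adjusted p = 0.057) without the third intact AA library. The comparisons under AA and of the AA effects share libraries and are not independent of each other.

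The deposited counts and FPKM values give a transcript length for each gene, and changes under AA ran with that length over all genes. In the shortest 20% of genes the median log2 change was 0.38 in deficient and 0.31 in intact cells, and in the longest 20% it was -0.39 and -0.30. For the difference between the genotypes these medians were 0.073 and -0.11. Length therefore moved beside several results above, and its part in them was not tested beyond refitting without the trend. Of the genes whose direction turned, SEC61G (448 bases), SEC61B (564), MANF (909) and SELENOS (1183) have short transcripts, and UGGT1 (7187) and SEL1L (7394) long ones. The difference between the genotypes was less touched: 6 members were called more positive and 18 more negative with the trend or without it. The 18 were not all the same genes. Without the trend UGGT1 lost its call, at -0.032 (edgeR adjusted p = 0.54), and SDF2L1 gained one, at -0.39 (edgeR adjusted p = 0.022). In the same fit 9 were higher and 21 lower under AA in deficient cells, and 5 and 16 in intact cells, where the higher members made up 23.8% of the calls in place of 38.5%. Over all 12718 genes tested that fit called 4370 higher and 4546 lower in deficient cells, and 4026 and 4221 in intact cells. There the higher genes made up 48.8% of all calls in place of 49.5%. No test was made between members and all genes.

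**Figure D4:**
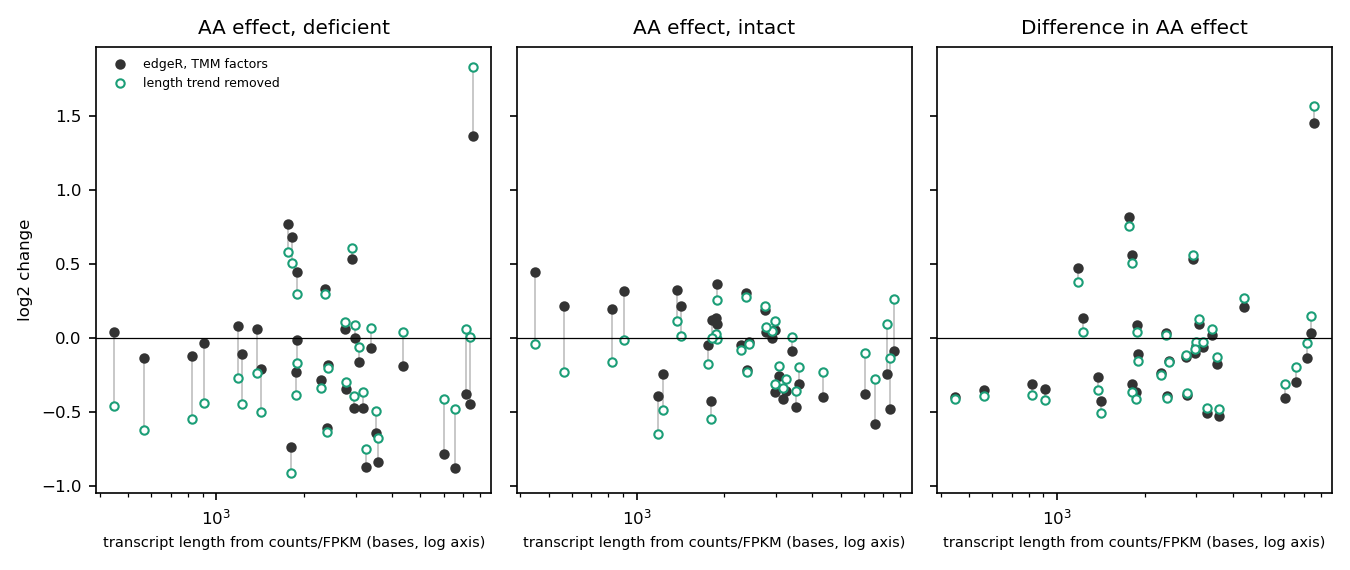
Log2 change (vertical) of the 35 genes against transcript length in bases (horizontal, log axis) in deficient cells, in intact cells and for the difference between them, as fitted with TMM factors (dark) and with the length trend taken out (green, open). Short genes move down and long genes move up in the left and middle panels when the trend is taken out, and the marks of the right panel stay close to each other.

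The other genes of the pathway were taken from 9 lists of 119 genes, of which 117 were tested (GPX7 and PDIA2 fell below the filter). They were chosen with earlier results of these data known. In deficient cells 46 (39.3%) were higher and 51 (43.6%) lower, and in intact cells 36 (30.8%) and 45 (38.5%). The difference was more positive for 30 (25.6%) and more negative for 37 (31.6%). Over all genes tested the same shares were 37.0% and 37.4%, 34.5% and 35.2%, and 21.6% and 23.0%, in that order. No test was made between them. The lean towards lower values was smaller than in the 35, with a median difference of -0.020 against -0.14. The list named for the third sensor, PERK, had the largest median change of the 9 in deficient cells, 2.06, and for the difference, 0.94. In intact cells its median was 0.17, below the 0.32 of the receptors that deliver parts of the ER to autophagy. Of its 7 genes 6 rose in deficient cells and 1 fell, and the same counts were called for the difference. Whether PERK itself was active was not tested. TRIB3, a pseudokinase that restrains ATF4, had log2 changes of 2.06 ± 0.05 in deficient and 0.31 ± 0.055 in intact cells (difference 1.75, edgeR adjusted p = 7.2e-14). DDIT3, the transcription factor CHOP, had log2 changes of 1.81 ± 0.09 in deficient and -0.26 ± 0.11 in intact cells (difference 2.07, edgeR adjusted p = 1.3e-10). ATF4, the translation-controlled factor of this arm, had log2 changes of 0.67 ± 0.031 in deficient and 0.17 ± 0.031 in intact cells (difference 0.50, edgeR adjusted p = 6.4e-09), and its intact rise was -0.028 with the length trend taken out. EIF2AK3, the gene of PERK itself and the 1 that fell (named after its value was seen), had log2 changes of -0.68 ± 0.069 in deficient and -0.080 ± 0.065 in intact cells (difference -0.59, edgeR adjusted p = 2.6e-05).

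Of the 9 genes on the list of J-domain proteins of the ER and SIL1, which exchanges the nucleotide of BiP, 5 were called more positive in deficient cells and 1 more negative. Over all genes 21.6% were called more positive and 23.0% more negative, and the counts of the lists below stand beside those shares. DNAJC1 had log2 changes of 0.67 ± 0.085 in deficient and -0.11 ± 0.09 in intact cells (difference 0.78, edgeR adjusted p = 2.3e-05), DNAJB12, whose J-domain faces the cytosol, of -0.093 ± 0.051 in deficient and -0.56 ± 0.052 in intact cells (difference 0.47, edgeR adjusted p = 2.2e-05), and DNAJC3, a co-chaperone also known as p58IPK, of -0.67 ± 0.037 in deficient and -0.36 ± 0.036 in intact cells (difference -0.31, edgeR adjusted p = 4.7e-05). The list of further ERAD genes divided evenly, with 7 more positive and 8 more negative of 24. VCP, the ATPase that pulls chains out of the membrane and acts after the complex described above, had log2 changes of -1.30 ± 0.031 in deficient and -0.076 ± 0.029 in intact cells (difference -1.22, edgeR adjusted p = 2.2e-15), and its partner NPLOC4 of -0.95 ± 0.033 in deficient and -0.39 ± 0.033 in intact cells (difference -0.56, edgeR adjusted p = 3.2e-09); the intact change of VCP was 0.039 with the length trend taken out. RHBDD1, a rhomboid protease of the ER, had log2 changes of 0.96 ± 0.099 in deficient and -0.23 ± 0.11 in intact cells (difference 1.19, edgeR adjusted p = 9e-07). In the COPII coat, where SEC24D works, 6 of 12 were more negative and none more positive: SEC24C had log2 changes of -0.98 ± 0.034 in deficient and -0.18 ± 0.032 in intact cells (difference -0.80, edgeR adjusted p = 1.1e-11), SEC23A of -0.69 ± 0.038 in deficient and 0.073 ± 0.037 in intact cells (difference -0.76, edgeR adjusted p = 1.7e-10) and SAR1A of -0.78 ± 0.036 in deficient and -0.28 ± 0.035 in intact cells (difference -0.49, edgeR adjusted p = 5.7e-08). The intact change of SEC24C was -0.0014 (edgeR adjusted p = 0.97) and that of SEC23A a called 0.20 without the length trend. Targeting, translocation and signal peptidase genes gave 3 more positive and 5 more negative of 20. SSR2 of the translocon-associated complex had log2 changes of -0.31 ± 0.034 in deficient and 0.25 ± 0.033 in intact cells (difference -0.55, edgeR adjusted p = 4.3e-09), SSR1 of -0.65 ± 0.03 in deficient and -0.29 ± 0.029 in intact cells (difference -0.35, edgeR adjusted p = 5.6e-07) and SPCS3 of the signal peptidase of -1.18 ± 0.037 in deficient and -0.87 ± 0.036 in intact cells (difference -0.31, edgeR adjusted p = 3.6e-05); the intact rise of SSR2 turned to -0.033 with the length trend taken out. Of the site proteases that cut ATF6 and their companions 3 were more positive and 3 more negative of 9. WFS1, an ER membrane protein, had log2 changes of -1.42 ± 0.071 in deficient and -0.25 ± 0.062 in intact cells (difference -1.17, edgeR adjusted p = 2.1e-09), MBTPS1, the first of the proteases that cut ATF6, of -0.47 ± 0.035 in deficient and 0.024 ± 0.034 in intact cells (difference -0.49, edgeR adjusted p = 4.1e-08), and CREB3L2, a factor cut in the same way, of -0.46 ± 0.035 in deficient and -0.14 ± 0.034 in intact cells (difference -0.32, edgeR adjusted p = 1.6e-05), with its deficient change at -0.023 (edgeR adjusted p = 0.56) and its intact change at 0.19 without the length trend, where the intact change of MBTPS1 was a called 0.19.

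**Figure D5:**
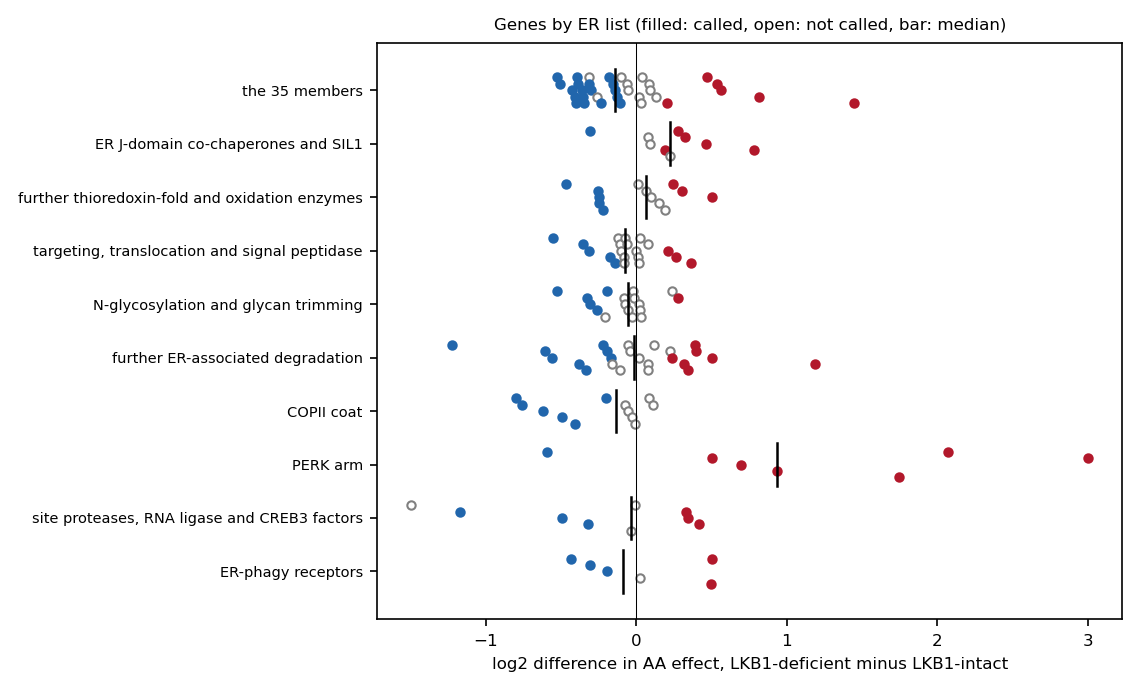
The log2 difference in AA effect, deficient minus intact (horizontal), of each gene in the 35 and in the 9 other lists (rows); filled points were called higher (red) or lower (blue), open ones were not called, and the bar is the median. The PERK list lies furthest right, with a median of 0.94, and the COPII list has no called gene right of 0.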

How the data were processed

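RNA was sequenced in 12 libraries in 4 groups of 3, by genotype and treatment. The authors deposited estimated counts and FPKM values for 20323 genes. Per the submitters' processing notes the tools were RSEM, HISAT2 2.1.0, Bowtie2 2.2.8, fastp 0.18.0 and StringTie 1.3.1. Their roles, the build and whether strand was used are not given there, so reads of antisense or near-identical genes may be shared with a member. The deposited estimated counts were rounded, filtered by group at a minimum count of 10 (12718 genes, 99.97% of counts) and fitted with edgeR 4.0.16 (R 4.3.3): TMM factors, quasi-likelihood, 4 groups, 5 comparisons, Benjamini-Hochberg adjustment over all genes tested, called under 0.05. The steps were tested on simulated data in which a small part of the genes was changed, equally up and down, in a single group. Most genes were called under AA in the real data, so that run does not show how the scaling behaves there. CPM values are TMM-scaled, and SE is the log2 change over the square root of F. Length is the deposited count per FPKM and depth, used to remove a loess trend of expression on length from each library.

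Full values went to members called for the difference with separate libraries in at least 1 AA comparison, to up to 8 called members of largest change in each AA comparison, and to HSPA5, XBP1, ATF6 and ERN1. Of other ER lists up to 3 called members of smallest p for the difference were named. Members and lists were chosen with earlier results of these data known. Alternatives were the replicate block, DESeq2 1.42.0, other scaling factors (RLE, upper quartile, library size only), looser and stricter low-count filters, limma 3.58.1 on log2(FPKM + 1) or log2(FPKM + 0.1), the length trend taken out, stricter thresholds, the compared libraries alone, and leaving out each library. Libraries of a group differed by a chi-square per degree of freedom of 2.00 to 4.35, above sampling noise, so none was taken for a copy.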

Additional observations from a re-analysis of the deposited data

Results flagged for a closer look

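The effect of AA differed between the genotypes for 24 of the 35 genes by edgeR's test of the difference itself (adjusted p under 0.05 over all genes tested), and these genes are listed for that reason. Of all genes tested 44.6% passed the same test. The effect was more positive in deficient cells, in log2 units, for ERN1 (1.45), XBP1 (0.81), HERPUD1 (0.56), ATF6 (0.53), SELENOS (0.47) and HYOU1 (0.21). It was more negative for SEC24D (-0.53), ERO1B (-0.51), CRELD2 (-0.42), EDEM1 (-0.40), SEC61G (-0.40), ERLEC1 (-0.39), PDIA4 (-0.39), CALR (-0.36), SEC61B (-0.35), MANF (-0.35), PDIA5 (-0.31), EDEM3 (-0.30), PDIA6 (-0.23), SEC61A1 (-0.18), P4HB (-0.15), UGGT1 (-0.14), HSP90B1 (-0.13) and PDIA3 (-0.11). The adjusted p by edgeR ran from 2.6e-11 for XBP1 to 0.029 for PDIA3. No outlier test was run on groups of 3 libraries, and each library was left out in turn instead.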

How the results depend on the processing

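Counts of called members were recomputed under up to 24 other settings per comparison, and stayed within 1.5 times the reported count except as follows. Asking also for an absolute log2 change of at least 0.5 left 4 higher and 7 lower in deficient cells, 0 and 1 in intact cells, 2 more negative for the difference, and 5 higher and 2 lower between the genotypes under AA. The share of all genes passing that threshold is not given here, so nothing about the members is read from those counts. Taking out the length trend left 5 higher in intact cells, and limma on log2(FPKM + 1) with no filter left 9 more negative for the difference. Over all genes the first of these fits called 4026 of 12718 higher, and the second 1678 of 16842 more negative. Taking out the length trend also turned directions. In deficient cells HYOU1 went to 0.041, CANX to 0.067, UGGT1 to 0.061, SEL1L to 0.0083, SELENOS to -0.27 and SEC61G to -0.46. In intact cells MANF went to -0.016, PDIA3 to -0.010, CANX to 0.0076, UGGT1 to 0.092, HERPUD1 to -0.0012, SEC61B to -0.23 and SEC61G to -0.045. The cause of the trend was not tested. Of the genes called for the difference 48.4% were more positive over all genes and 25% among the members. With library sizes alone as factors these shares were 57.9% and 30.4%, and with limma on log2(FPKM + 1), which also changes the model and the genes tested, 60.3% and 33.3%. That limma fit ended the calls of the difference for HSP90B1, PDIA3, P4HB, UGGT1, EDEM1 and EDEM3, of the AA effect for UGGT1 and DERL1 in both genotypes, for SEC61B in deficient cells and for CRELD2, ERO1B and DERL2 in intact cells, and under AA between the genotypes for HSPA5, ERO1A, UGGT1, EDEM3, SYVN1, DERL1 and SEC61G. Labels number the libraries of each group, but same-numbered libraries did not deviate together (18 correlations from -0.0939 to 0.0537). With the replicate block 7 members were higher and 19 lower in deficient cells, 10 and 16 in intact cells, 6 and 18 for the difference, 0 and 0 under PBS, and 7 and 22 between the genotypes under AA, where the call of DERL1 was lost. Of all 12718 genes tested the block called 4666 higher and 4736 lower in deficient cells, and 4334 and 4442 in intact cells. For the difference these counts were 2685 and 2869, under PBS 7 and 25, and under AA 3606 and 3796. With 3 libraries a group the precision is limited for scarce genes such as DERL3 and ERN1.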

Other observations

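Receptors that deliver parts of the ER to autophagy included 6 genes, of which 2 were called more positive and 3 more negative in deficient cells. Over all genes 21.6% were called more positive and 23.0% more negative, which holds beside the counts of each list here. CCPG1 had log2 changes of 0.34 ± 0.029 in deficient and -0.16 ± 0.029 in intact cells (difference 0.50, edgeR adjusted p = 2.2e-09), RETREG1 of 0.83 ± 0.065 in deficient and 0.32 ± 0.066 in intact cells (difference 0.51, edgeR adjusted p = 0.00012) and RTN3 of 0.040 ± 0.035 in deficient and 0.47 ± 0.035 in intact cells (difference -0.43, edgeR adjusted p = 3.5e-07). Enzymes of N-glycosylation and glycan trimming gave 1 more positive and 5 more negative of 17. OSTC, a subunit of the oligosaccharyltransferase, had log2 changes of -0.27 ± 0.041 in deficient and 0.26 ± 0.04 in intact cells (difference -0.53, edgeR adjusted p = 1.6e-07), MAGT1 of -0.22 ± 0.035 in deficient and 0.088 ± 0.034 in intact cells (difference -0.31, edgeR adjusted p = 2.1e-05), and the catalytic subunit STT3A of 0.088 ± 0.029 in deficient and -0.19 ± 0.029 in intact cells (difference 0.28, edgeR adjusted p = 1.2e-05); with the length trend taken out the intact rise of OSTC turned to -0.030, and MAGT1 was -0.060 (edgeR adjusted p = 0.12) in deficient and 0.20 in intact cells. Of the further thioredoxin-fold and oxidation enzymes 3 of 13 tested were more positive and 5 more negative. TXNDC5 had log2 changes of -1.10 ± 0.033 in deficient and -0.64 ± 0.032 in intact cells (difference -0.46, edgeR adjusted p = 3.8e-08), TMX3 of 0.17 ± 0.041 in deficient and -0.33 ± 0.042 in intact cells (difference 0.50, edgeR adjusted p = 4.7e-07) and TMX2 of 0.31 ± 0.038 in deficient and 0.011 ± 0.038 in intact cells (difference 0.30, edgeR adjusted p = 8.7e-05). With the length trend taken out TMX2 was 0.076 (edgeR adjusted p = 0.062) in deficient and -0.15 (edgeR adjusted p = 0.00069) in intact cells.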
